A study of Mus musculus with 6 samples.

Results

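The enzymes that make and recycle nucleotides were examined in activated mouse B cells with and without hnRNPL, an RNA-binding protein that regulates alternative splicing. The set holds 36 genes, listed by name for their place in purine, pyrimidine and deoxynucleotide supply. All 36 were among the 55421 genes of the deposited table, and all 36 were expressed highly enough to be tested, as were 17640 genes in all. RNA-seq was compared between 3 WT libraries (*CD21-cre* with *Rosa mT/mG*) and 3 hnRNPL-deficient libraries (*Hnrnpl F/F* with the same *CD21-cre* and *Rosa mT/mG*). Both groups therefore carried the *CD21-cre* transgene, which is active in mature B cells, and the *Rosa mT/mG* reporter, in which Cre turns on GFP. Both were on the C57BL6/J background, and the study took mice of either sex over 6 weeks of age. Splenic B cells were stimulated for 24 h by LPS at 5 μg/ml together with IL-4 at 5 ng/ml, and GFP+ cells, those in which Cre had acted, were sorted before RNA extraction. The comparison asks how the transcripts of these enzymes differ, early after activation, between B cells that lack and B cells that have hnRNPL.

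A B cell that leaves rest must copy its genome and make large amounts of RNA, and both need nucleotides. De novo synthesis builds the purine ring on ribose phosphate and the pyrimidine ring from simple precursors, salvage kinases and phosphoribosyltransferases recover free bases and nucleosides, and ribonucleotide reductase turns ribonucleotides into the deoxynucleotides used for DNA. Several of these genes are known targets of MYC and E2F transcription factors and rise when lymphocytes enter the cell cycle, while mitochondria keep a separate set of kinases and carriers for copying mitochondrial DNA.

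The sequence just upstream of each gene was searched for core letters that MYC and E2F factors are known to bind. It was also searched for the CCAAT box, which is not counted here as an element of either. In the 250 bases before the annotated start, read on both strands, the E-box CACGTG, bound by MYC with its partner MAX, was found in 6 of the 33 enzyme genes with a RefSeq promoter sequence (18.2%) and in 6.86% of 27025 genes. Its 6 holders were *Paics*, *Atic*, *Impdh2*, *Tyms*, *Dtymk* and *Nme1*. Unlike the enzymes, the 27025 genes were not limited to genes expressed in these cells, so the 2 shares are from unlike sets. None of the 6 holders had an adjusted p under 0.1 from limma in the comparison below, and *Paics* and *Atic* did from DESeq2. Whether the motif goes with a change was not tested. An E2F element (TTTCCCGC, TTTCGCGC, TTTGCCGC or TTTGGCGC) was found in 1 of 33 (3.03%), *Ppat*, and in 2.16% of all genes. The CCAAT box was found in 11 of 33 (33.3%) and in 37.5% of all genes. *Pfas*, *Dhodh* and *Rrm2b* had no entry. The motifs were chosen after the expression values were seen, and a match is a description of the letters and not a binding site. All matches except those of *Nme1* are shown on the gene's own strand, 5′ to 3′, from RefSeq on GRCm38.p6. Capitals mark the match, which for *Ppat* is TTTCCCGC read on the opposite strand (GCGGGAAA). They show how differently placed the same core is in genes that are compared side by side.
Paics, chr5:76951087-76951116, plus strand: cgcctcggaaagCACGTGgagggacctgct
Atic, chr1:71557126-71557155, plus strand: gaggaggggcgggacctcggggtCACGTGg
Impdh2, chr9:108560314-108560343, plus strand: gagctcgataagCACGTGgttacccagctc
Tyms, chr5:30073669-30073698, minus strand: aaccacttctgtCACGTGggggcggggtct
Dtymk, chr1:93802065-93802094, minus strand: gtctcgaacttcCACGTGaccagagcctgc
Ppat, far match, chr5:76951771-76951800, minus strand: gagcagaccgcGCGGGAAAaaagggcagtg
Ppat, near match, chr5:76951718-76951747, minus strand: aggatcagaggGCGGGAAAgggaggtgcaa
The E-box ended 2 bases before the RefSeq start in *Atic*, 56 in *Tyms*, 105 in *Impdh2*, 143 in *Dtymk* and 198 in *Paics*. GENCODE, from which gene coordinates are taken elsewhere, starts *Impdh2* at 108560286 and *Atic* at 71557150, so that by its starts the *Impdh2* match lies inside the gene and the *Atic* match spans the start. *Ppat* and *Paics* are divergent neighbours whose annotated starts overlap by 272 bases, so the *Ppat* matches lie within *Paics*. The gene with the largest rise, *Tk2*, held none of these motifs in its 250 bases, which contained 13 CpG and 55.6% G or C:
Tk2, chr8:104248559-104248808, minus strand: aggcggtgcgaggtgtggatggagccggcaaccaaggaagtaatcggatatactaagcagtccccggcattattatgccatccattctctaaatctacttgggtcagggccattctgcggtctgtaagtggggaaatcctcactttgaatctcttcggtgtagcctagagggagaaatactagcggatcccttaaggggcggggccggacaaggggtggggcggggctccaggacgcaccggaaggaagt

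Values are normalized counts, which are read counts per gene divided by a size factor for each library. Between 40395186 and 75180749 reads fell on genes per library, with hnRNPL-deficient library 3 the shallowest. *Hnrnpl* itself fell to 6.74% of the WT mean (log2 fold change -3.93, adjusted p = 2.23e-05 from limma). The 8 B cell markers were all present, with summed values of 290507 to 371954 in WT and 285676 to 340862 in hnRNPL-deficient libraries. Of these only *Cr2* was called, higher, at 4015 ± 1017 against 7299 ± 2021 normalized counts (adjusted p = 0.0444 from limma). The T cell list summed to 1067 to 1196 in WT and 743 to 1144 in hnRNPL-deficient libraries, mostly from *Lck*, with 5 of its 8 genes too low to test. Of the other 3, *Cd8b1* was called lower (28.9 ± 3.34 against 8.38 ± 5.88 normalized counts, adjusted p = 0.0405 from limma), while *Lck* (938 against 746) and *Thy1* (159.6 against 248) did not pass. The defining *Cd3e* and *Cd4* reached at most 1.01 and 1.80 normalized counts, and *Lyz2*, *S100a8* and *Ncr1* at most 2.02. The myeloid list summed to 260.0 to 332 in WT and 1239 to 1384 in hnRNPL-deficient libraries, with 2 of its 8 genes at 0 throughout and nearly all of the sum from *Adgre1*. *Adgre1* was called higher (277.5 ± 39.9 against 1308 ± 80.1 normalized counts, adjusted p = 0.000139 from limma). The erythroid list summed to 17.6 to 38.3 in WT and 55.0 to 84.8 in hnRNPL-deficient libraries, and its *Hbb-bt* was called higher (adjusted p = 0.0235 from limma). The plasma cell list summed to 14221 to 16488 in WT and 13373 to 16508 in hnRNPL-deficient libraries, mostly from *Xbp1*. Its *Jchain* was called lower (84.1 ± 50.4 against 14.7 ± 8.23 normalized counts, adjusted p = 0.0509 from limma). The dendritic cell list summed to 639 to 779 in WT and 613 to 658 in hnRNPL-deficient libraries. The part of such cells in the enzyme values was not tested. *Xist* showed that WT library 3 and hnRNPL-deficient library 2 came from females (98507 and 98219 normalized counts) and the other 4 did not (at most 7.21), so each group held 1 such library.

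Most nucleotide enzymes had a lower fitted level in hnRNPL-deficient cells, by modest amounts of which few passed the test, and *Tk2*, the mitochondrial thymidine kinase, rose. Log2(normalized count + 1) was tested with limma over the 17640 genes. A gene passed the test where its p, adjusted by Benjamini-Hochberg, was under 0.1, and was called when it also differed by at least 1.5-fold. Of the 36 enzymes, 6 passed the test in the lower direction (*Ppat*, *Gart*, *Umps*, *Dck*, *Dguok* and *Aprt*), against 7.97% of all tested genes, and 2 in the higher direction (*Tk2* and *Ctps2*), against 10.0% of all tested genes. With the size requirement, 2 were called lower (*Umps* and *Dck*), where the background is 4.08%, and 1 was called higher (*Tk2*), where it is 7.28%. The median log2 fold change of the 36 genes was -0.31, with a range of -0.64 to 0.88, beside a median of -0.03 over all tested genes. The fitted change was below 0 for 31 of the 36 enzymes and for 52.7% of tested genes. That count was 29 with quantile normalization, where *Prps2* (0.04) and *Cad* (0.02) were above 0, and 27 without WT library 1.

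The libraries within each group differed. The hnRNPL-deficient values lay entirely below the WT values for 14 enzymes, where 16.3% of all tested genes did so, and entirely above them for 3, where 17.7% did so. Relative to the WT mean, the median over the 36 enzymes on the log2 scale was 0.17, -0.03 and -0.12 in WT libraries 1, 2 and 3. In the hnRNPL-deficient libraries it was -0.14, -0.21 and -0.51. WT library 1 held the highest value of 21 enzymes and hnRNPL-deficient library 3 the lowest value of 28. Without hnRNPL-deficient library 3 the median log2 fold change was -0.18 and 2 enzymes passed the test in the lower direction, and without WT library 1 these were -0.24 and 3. Leaving out WT library 2 also left 2 such enzymes. The share of all normalized counts that the 36 enzymes took was 0.435%, 0.393% and 0.383% in WT and 0.375%, 0.352% and 0.314% in hnRNPL-deficient libraries, so the groups did not overlap on this measure.

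**Figure D1:**
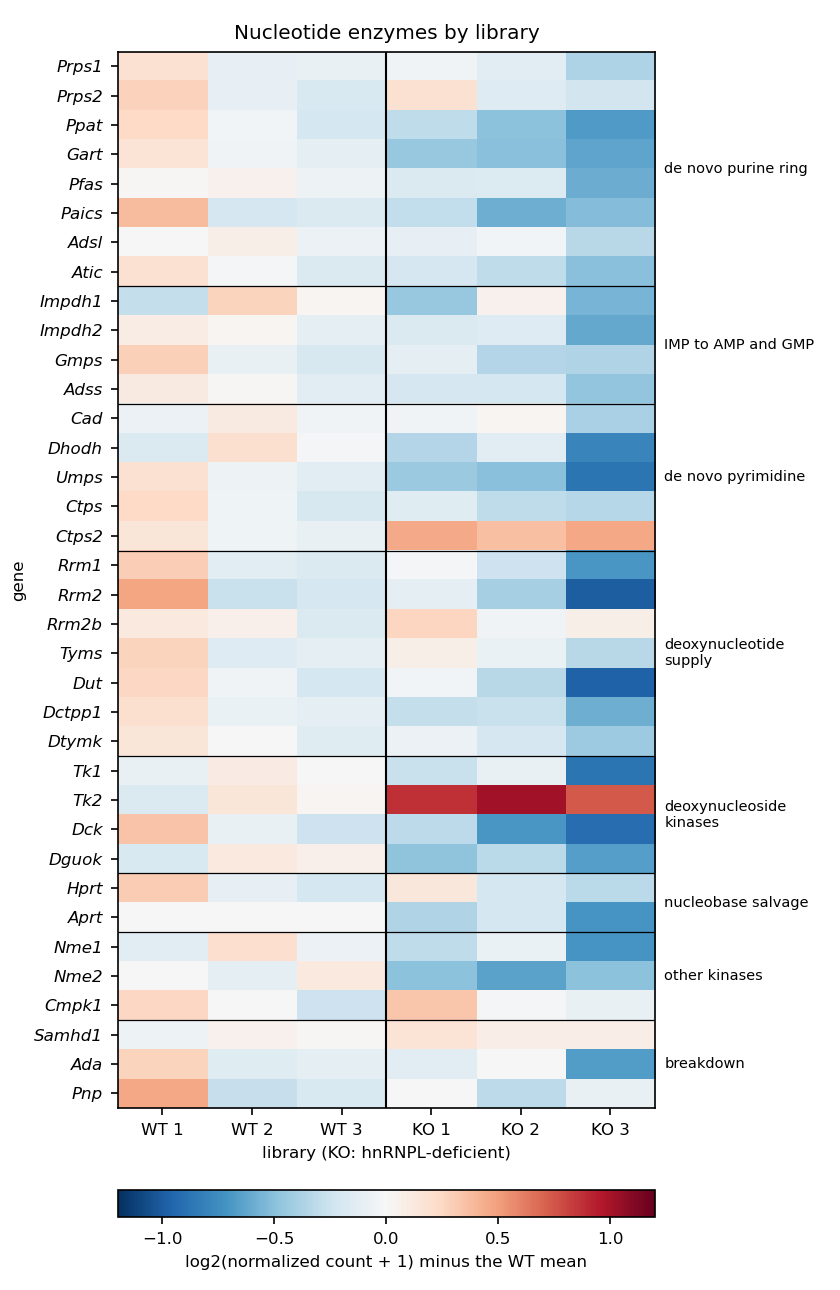
Each row is 1 of the 36 enzymes, ordered by role, and each column 1 library. Color gives log2(normalized count + 1) minus the WT mean of that gene, with blue for lower and red for higher values. hnRNPL-deficient library 3 is the bluest column (median -0.51), WT library 1 is the reddest (median 0.17), and *Tk2* is red in all 3 hnRNPL-deficient libraries.

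The bulk libraries cannot tell fewer S phase cells from less RNA of these genes per cell. The summed level of 15 S phase and proliferation genes, such as *Mki67*, *Pcna* and the *Mcm* genes, was 244971, 192384 and 185043 normalized counts in WT and 174912, 157824 and 112231 in hnRNPL-deficient libraries. All 15 had a lower hnRNPL-deficient mean, beside a fitted change below 0 for 52.7% of all tested genes. Of the 15, 7 passed the test in limma in the lower direction, where 7.97% of all tested genes did. The sum over the 36 enzymes followed a like order, at 270549, 234544 and 219996 in WT and 221543, 204432 and 173599 in hnRNPL-deficient libraries, where WT library 3 lay below hnRNPL-deficient library 1. The mean sum of the enzymes was 82.7% of WT and that of the proliferation genes 71.5%. The part of cell cycle stage in the enzyme values was not tested.

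**Figure D2:**
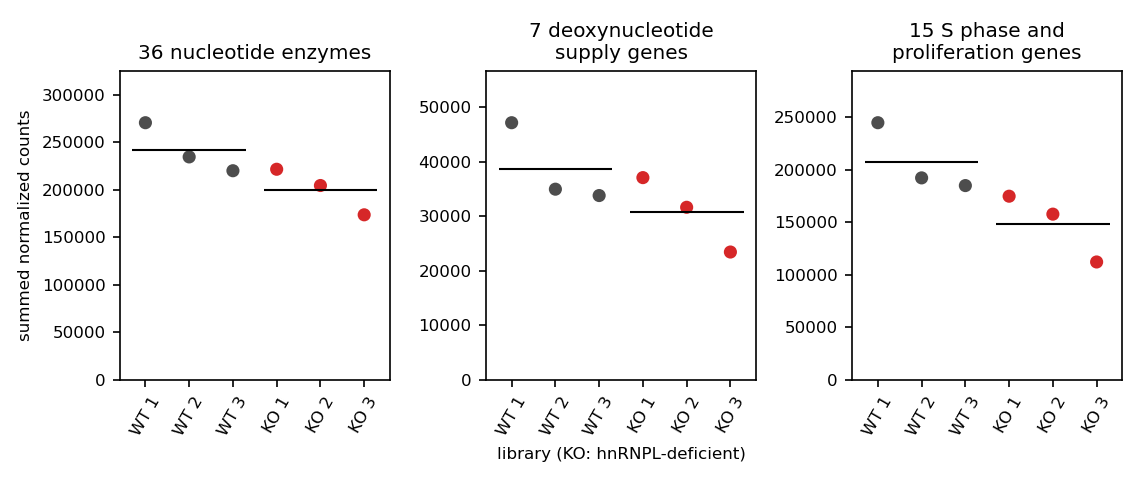
Points are libraries and lines group means of the summed normalized counts for the 36 enzymes (left), the 7 genes of deoxynucleotide supply (middle) and the 15 S phase and proliferation genes (right). The groups overlap in the left and middle panels and not in the right panel, and hnRNPL-deficient library 3 is lowest in all 3.

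De novo purine synthesis begins with PRPP, the activated ribose made by PRPP synthetases, to which PPAT attaches the first ring nitrogen. All 8 genes of this route had a fitted change below 0, as did 52.7% of all tested genes, with a median of -0.32. With quantile normalization *Prps2* was above 0 (0.04). Of the 8, 2 passed the test in limma (*Ppat* and *Gart*), where 7.97% of all tested genes passed in the lower direction. By edgeR the same 2 passed, and by DESeq2 4 did (*Ppat*, *Gart*, *Paics* and *Atic*). *Ppat* (chromosome 5, 76913249 to 76951578 in GRCm38), which encodes the committed step, had 13688, 11361 and 10049 normalized counts in WT and 9410.3, 8267 and 7234 in hnRNPL-deficient libraries. The highest hnRNPL-deficient value was thus below the lowest WT value. Its log2 fold change was -0.49 (95% interval -0.81 to -0.17, adjusted p = 0.0597 from limma). *Gart* (chromosome 16, 91621186 to 91646952), a trifunctional enzyme that acts at several of the next steps, had 14356, 12438 and 11786 normalized counts in WT and 9363, 9035 and 8280.1 in hnRNPL-deficient libraries. Its groups were the farthest apart of the route relative to their spread, at 12860.0 ± 1336 against 8893 ± 555 normalized counts (SD, n = 3 libraries each), and the log2 fold change was -0.53 (95% interval -0.77 to -0.29, adjusted p = 0.0173 from limma). *Gart* passed the test in all 19 alternative fits, whereas *Ppat* did not when any of 4 libraries was left out (adjusted p up to 0.147 from limma, and from 0.00352 to 0.147 over its alternatives).

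*Paics*, which shares its start region with *Ppat* and encodes a bifunctional enzyme of the middle steps, had 25558, 17087 and 17446 normalized counts in WT and 16063, 13136 and 13720.2 in hnRNPL-deficient libraries. The groups did not overlap, but WT library 1 stood well above the other 2. The change missed the threshold in limma (log2 fold change -0.47, 95% interval -0.84 to -0.09, adjusted p = 0.110 from limma, and from 0.00889 to 0.248 over its alternatives). It passed by DESeq2. Within each library the ratio of *Paics* to *Ppat* was 1.87, 1.504 and 1.74 in WT and 1.71, 1.59 and 1.90 in hnRNPL-deficient libraries. These overlapped, with a fold of 1.02 between the groups (p = 0.9, two-sided exact permutation test, Benjamini-Hochberg adjusted p = 1 over the 9 gene pairs computed). *Atic*, which closes the ring, and *Pfas*, a glutamine-using enzyme before it, also showed no overlap, with log2 fold changes of -0.34 and -0.31 and adjusted p of 0.122 and 0.157 from limma. Over the alternative fits adjusted p ran from 0.0151 to 0.262 for *Atic*, which passed by DESeq2, and from 0.0414 to 0.325 for *Pfas*. The other 3 genes of the route overlapped between groups. *Prps1* and *Prps2*, the X-linked PRPP synthetases, had intervals of -0.47 to 0.10 and -0.41 to 0.28 on the log2 scale, and *Adsl*, a lyase used in both the ring and the AMP branch, one of -0.40 to 0.09.

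From IMP, the finished ring, IMP dehydrogenase and GMP synthetase lead to GMP and adenylosuccinate synthetase to AMP. All 4 genes had fitted changes between -0.32 and -0.28. By limma, edgeR and DESeq2 alike 0 of 4 passed the test, and 2 of 4 had an unadjusted p under 0.05 in limma, in the lower direction, where 12.9% of all tested genes did. Over the alternative fits adjusted p ran from 0.0281 to 0.266 for *Adss* and from 0.0352 to 0.446 for *Impdh2*. For *Gmps* it ran from 0.0415 to 0.506 and for *Impdh1* from 0.0769 to 0.608. *Impdh2*, the isozyme known to be induced in proliferating lymphocytes, had 17080.4, 16365 and 14932 normalized counts in WT and 14266, 14467 and 10510.1 in hnRNPL-deficient libraries. The groups did not overlap, with an adjusted p of 0.181 from limma. *Adss* also did not overlap (7664, 7193 and 6536 against 6195, 6149 and 5114 normalized counts, adjusted p = 0.132 from limma), while *Gmps* (adjusted p = 0.237 from limma) and *Impdh1* (adjusted p = 0.329 from limma) did. The ratio of *Impdh1* to *Impdh2* lay between 0.0634 and 0.0968 in WT and between 0.0673 and 0.0943 in hnRNPL-deficient libraries, a fold of 0.995 (p = 1, two-sided exact permutation test). An annotated pseudogene of *Impdh2* holds 31.4% of its 100-base stretches, the read length of the study, so its reads could be shared.

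In pyrimidine synthesis 4 of the 5 genes had a fitted change below 0, as did 52.7% of all tested genes. In each direction 1 of 5 passed the test, where 7.97% of all tested genes did in the lower and 10.0% in the higher. Differences between the steps were not tested. CAD begins the route, DHODH oxidizes its intermediate in the mitochondrial inner membrane, UMP synthase makes the product UMP, and the CTP synthetases turn UTP into CTP. *Umps* (chromosome 16, 33954782 to 33967038) fell. It had 7267, 6156 and 5871 normalized counts in WT and 4716, 4535 and 3497 in hnRNPL-deficient libraries, without overlap, and its log2 fold change was -0.60 (95% interval -0.92 to -0.29, adjusted p = 0.0288 from limma). The size was close to the 1.5-fold limit, so that *Umps* passed the test in all 19 alternative fits but was called in 14. Leaving out WT library 1 (-0.51) or hnRNPL-deficient library 3 (-0.47) took it under 1.5-fold. *Cad* had 18394, 20819 and 18769 normalized counts in WT and 18786, 19598 and 14728 in hnRNPL-deficient libraries. hnRNPL-deficient libraries 1 and 2 lay within the WT range, and the log2 fold change was -0.14 (95% interval -0.42 to 0.15, adjusted p = 0.527 from limma). For *Dhodh*, with 684, 879 and 765 against 607, 703 and 447 normalized counts, the fitted change was -0.42 with an interval that reached just past 0 (-0.85 to 0.01).

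Of the CTP synthetases only *Ctps2* passed the test. *Ctps2* (chromosome X, 162901238 to 163032508) rose, from 1446, 1254 and 1221 to 1789, 1676 and 1801 normalized counts, with a log2 fold change of 0.43 (95% interval 0.18 to 0.68, adjusted p = 0.0416 from limma). *Ctps*, the isozyme that proliferating lymphocytes are known to need, had 7386, 6000.4 and 5476 against 5642, 5063 and 4923 normalized counts, with overlap and a log2 fold change of -0.26 (95% interval -0.55 to 0.03, adjusted p = 0.222 from limma, and from 0.0535 to 0.472 over its alternatives). The ratio of *Ctps2* to *Ctps* was 0.196, 0.209 and 0.223 in WT and 0.317, 0.331 and 0.366 in hnRNPL-deficient libraries. It was thus 1.61-fold higher without overlap (p = 0.1, the smallest that a two-sided exact permutation test of 3 against 3 can give, and 0.18 adjusted over 9 pairs). *Ctps2* did not pass the test with WT library 2 or 3 or hnRNPL-deficient library 1 left out (adjusted p up to 0.154 from limma, and from 0.00778 to 0.154 over its alternatives). With *Xist* as a covariate its log2 fold change was 0.43 and its adjusted p 0.0528 from limma.

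**Figure D3:**
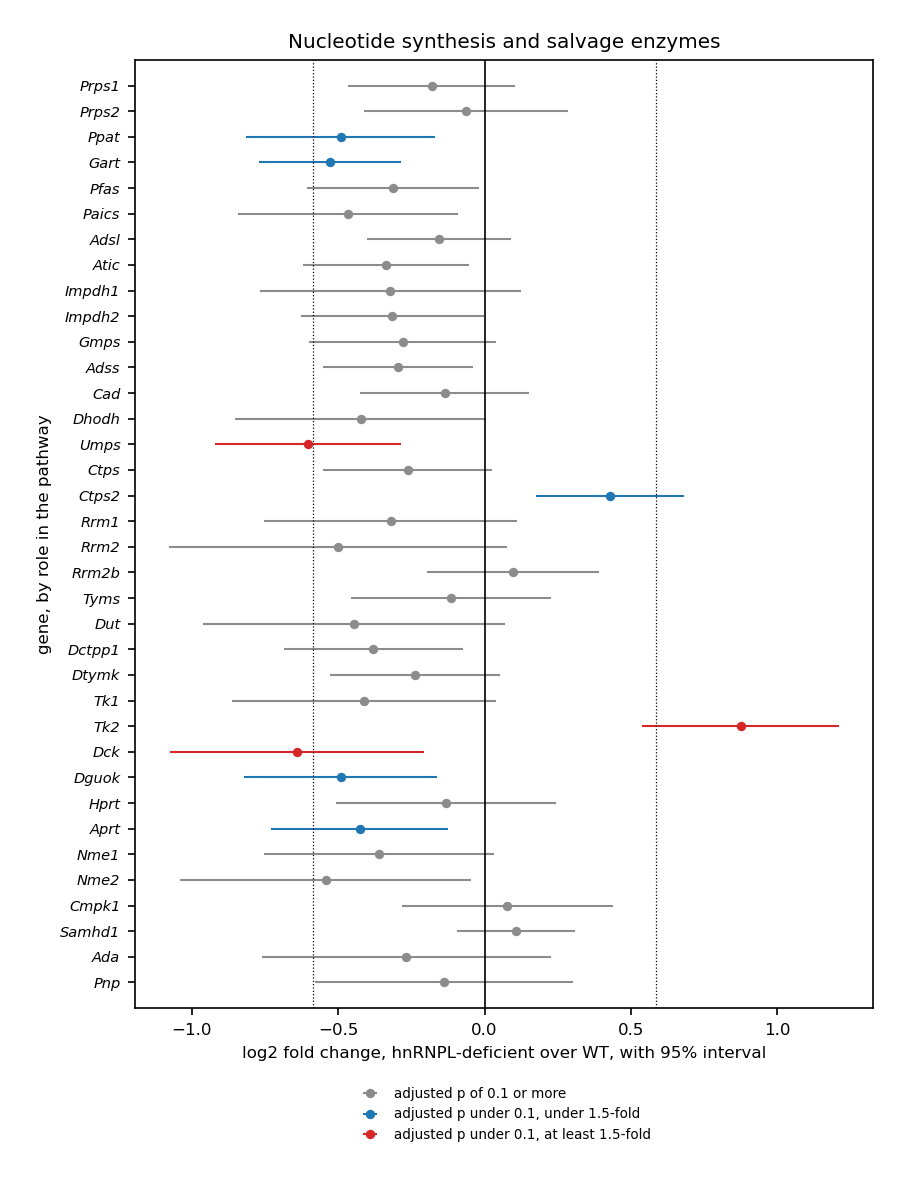
Points are log2 fold changes of hnRNPL-deficient over WT libraries and lines their 95% intervals from limma, for the 36 enzymes in pathway order. Dotted lines mark 1.5-fold. Red marks the 3 called genes (*Umps*, *Dck* and *Tk2*), blue the 5 others with an adjusted p under 0.1, and gray the remaining 28, whose points lie mostly left of 0.

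Of the 7 genes of deoxynucleotide supply, 6 had a fitted change below 0, as did 52.7% of all tested genes, with a median of -0.32. In limma 0 passed the test, where 7.97% of all tested genes did in the lower direction and 10.0% in the higher. In the same fit 1 of 7 had an unadjusted p under 0.05 in the lower direction, where 12.9% of all tested genes did. In the higher direction 0 did, where 14.4% of all tested genes did. By edgeR 0 passed and by DESeq2 1 did (*Dctpp1*, adjusted p = 0.0695, and from 0.0293 to 0.236 over its alternatives). Ribonucleotide reductase pairs the large subunit RRM1 with RRM2, a small subunit made in S phase, or with RRM2B, a small subunit induced by p53. *Rrm2* had 11422, 6829.6 and 7162 normalized counts in WT and 7629, 6229.5 and 4145 in hnRNPL-deficient libraries. hnRNPL-deficient library 1 lay above WT libraries 2 and 3, and the interval of the log2 fold change ran from -1.08 to 0.08 (adjusted p = 0.242 from limma, and from 0.0218 to 0.530 over its alternatives). *Rrm1* had a like pattern, with WT library 1 and then hnRNPL-deficient library 1 highest, at 18614, 13872 and 13452 against 14951, 12770.0 and 9329 normalized counts and an interval of -0.75 to 0.11. Its adjusted p was 0.315 from limma, and from 0.0406 to 0.650 over its alternatives.

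*Rrm2b* had 1462, 1407 and 1198 normalized counts in WT and 1615, 1316 and 1420.0 in hnRNPL-deficient libraries. The values overlapped, with a log2 fold change of 0.10 and a 95% interval of -0.20 to 0.39, which does not reach 1.5-fold. In the same libraries *Cdkn1a*, another p53 target, shown here after its values were seen, rose from 471 ± 71.7 to 4769.5 ± 409 normalized counts (SD, n = 3 libraries each, adjusted p = 2.11e-05 from limma). The ratio of *Rrm2b* to *Rrm2* was 0.128, 0.206 and 0.167 in WT and 0.212, 0.211 and 0.343 in hnRNPL-deficient libraries. It did not overlap and was 1.51-fold higher (p = 0.1, the smallest a two-sided exact permutation test can give here, and 0.18 adjusted over 9 pairs).

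The enzymes that lead to dTTP and guard the pool had smaller or more variable differences. *Dctpp1*, which hydrolyzes dCTP and modified forms of it, was the only one of this group without overlap, at 2298, 1906 and 1875 against 1657, 1676 and 1342 normalized counts (log2 fold change -0.38, adjusted p = 0.108 from limma). *Dut*, which removes dUTP and so supplies dUMP, had 7171, 5861 and 5193 against 5867, 4788 and 3070.2 normalized counts, with an interval of -0.96 to 0.07 (adjusted p = 0.243 from limma, and from 0.0219 to 0.511 over its alternatives). *Tyms*, which methylates dUMP to dTMP, and *Dtymk*, which phosphorylates dTMP, overlapped between groups, with intervals of -0.46 to 0.23 and -0.53 to 0.05.

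The salvage kinases for deoxynucleosides held the largest changes of the set, in opposite directions. TK1 and DCK work mainly in the cytosol and TK2 and DGUOK in mitochondria, where TK2 phosphorylates thymidine and deoxycytidine and DGUOK the purine deoxynucleosides. *Tk2* (chromosome 8, 104226685 to 104248558, minus strand) had 345, 429.7 and 395 normalized counts in WT and 716, 783 and 648 in hnRNPL-deficient libraries. Every hnRNPL-deficient value was well above every WT value. The mean rose from 389.9 ± 42.8 to 716 ± 67.6 (SD, n = 3 libraries each), which is 184% of WT, with a log2 fold change of 0.88 (95% interval 0.54 to 1.21, adjusted p = 0.00840 from limma). It was called in each of its 19 alternative fits, with log2 fold changes of 0.79 to 0.95, apart from the stricter threshold of 2-fold, which it did not reach.

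*Dguok* (chromosome 6, 83480217 to 83506969), the other mitochondrial kinase, had 790.3, 976 and 938 normalized counts in WT and 641, 716 and 566 in hnRNPL-deficient libraries. It fell without overlap (log2 fold change -0.49, 95% interval -0.82 to -0.16, adjusted p = 0.0629 from limma). The fall did not pass the test with WT library 2 or 3 or hnRNPL-deficient library 1 or 3 left out (adjusted p up to 0.196 from limma, and from 0.0156 to 0.196 over its alternatives). The ratio of *Tk2* to *Dguok*, computed after their values were seen, was nearly constant within groups, at 0.436, 0.440 and 0.422 in WT and 1.12, 1.09 and 1.145 in hnRNPL-deficient libraries. The *Tk2* transcript thus went from the less to the more abundant of the pair by count, a 2.59-fold difference in ratio. Per kilobase of annotated exon, WT levels were 109 ± 11.98 normalized counts for *Tk2* and 195 ± 21.3 for *Dguok* (SD, n = 3 libraries).

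*Dck* (chromosome 5, 88764996 to 88783281), the cytosolic kinase for deoxycytidine, had 5782, 4298 and 3847 normalized counts in WT and 3689, 2821 and 2421 in hnRNPL-deficient libraries. It had the largest fall of the 36 enzymes, to 64.1% of the WT mean (log2 fold change -0.64, 95% interval -1.08 to -0.21, adjusted p = 0.0653 from limma). The gap between the groups was small next to the spread within them, since WT library 3 stood only just above hnRNPL-deficient library 1. *Dck* was not called when WT library 1 or 2 or hnRNPL-deficient library 2 or 3 was left out (adjusted p up to 0.167 from limma, and from 0.00151 to 0.167 over its alternatives). *Tk1*, the S phase thymidine kinase, had 1014, 1159 and 1074 against 899, 1013 and 588 normalized counts. The groups met without overlapping, hnRNPL-deficient library 3 was far below the others, and the change missed the threshold (log2 fold change -0.41, 95% interval -0.86 to 0.04, adjusted p = 0.219 from limma, and from 0.0847 to 0.416 over its alternatives). The ratio of *Tk2* to *Tk1* was 0.340, 0.371 and 0.368 in WT and 0.796, 0.774 and 1.10 in hnRNPL-deficient libraries, 2.45-fold higher without overlap (p = 0.1, two-sided exact permutation test).

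**Figure D4:**
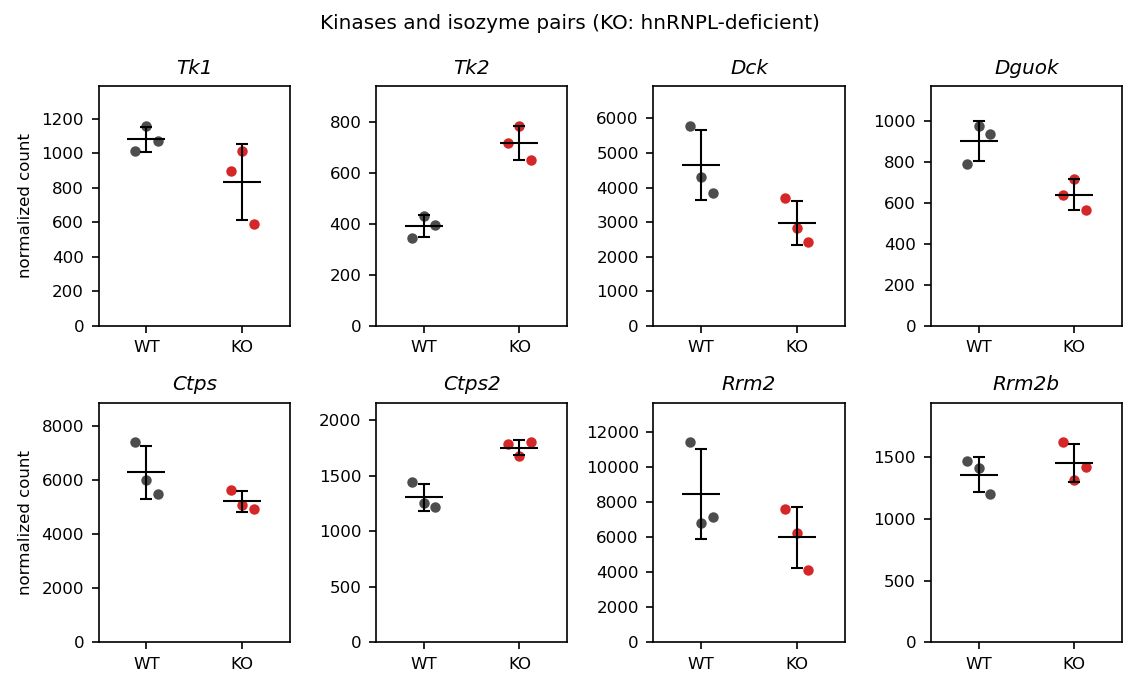
Normalized counts (linear axes from 0) of the 4 deoxynucleoside kinases (top) and of both isozyme pairs of CTP synthetase and of the small ribonucleotide reductase subunit (bottom). Points are libraries, long bars means and whiskers SD (n = 3). *Tk2* and *Ctps2* lie higher in hnRNPL-deficient (KO, red) than in WT (gray) libraries, whereas *Dck* and *Dguok* lie lower and *Rrm2b* overlaps.

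Among the phosphoribosyltransferases that salvage free bases, *Aprt* (chromosome 8, 122574635 to 122576909), which recovers adenine, had 3693, 3676 and 3699 normalized counts in WT and 2879.5, 3177 and 2257 in hnRNPL-deficient libraries. The WT libraries were nearly identical and all hnRNPL-deficient values were lower (log2 fold change -0.43, 95% interval -0.73 to -0.13, adjusted p = 0.0739 from limma). *Aprt* did not pass the test with any library other than hnRNPL-deficient library 2 left out (adjusted p up to 0.185 from limma, and from 0.0263 to 0.185 over its alternatives). *Hprt*, X-linked, which recovers hypoxanthine and guanine, had 8218, 6223 and 5744 against 7314, 5746 and 5314 normalized counts, with overlap and an interval of -0.51 to 0.24.

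Of the other phosphate kinases (*Nme1*, *Nme2* and *Cmpk1*) 0 of 3 passed the test by limma, edgeR or DESeq2. In limma 1 of 3 (*Nme2*) had an unadjusted p under 0.05 in the lower direction, where 12.9% of all tested genes did. *Nme2* was called lower with quantile normalization (log2 fold change -0.68, adjusted p = 0.0786 from limma) and passed without the mean-variance trend (adjusted p = 0.0443 from limma, and from 0.0443 to 0.367 over its alternatives). *Nme1* and *Nme2*, neighbouring genes for nucleoside diphosphate kinases, had fitted changes of -0.36 and -0.54 (adjusted p of 0.217 and 0.150 from limma, and for *Nme1* from 0.0530 to 0.446 over its alternatives). The low level of *Nme2*, 89.9 to 105 normalized counts in WT and 61.6 to 68.5 in hnRNPL-deficient libraries, is uncertain. Of its exon bases, 48.9% are shared on the same strand with the readthrough gene *Gm20390*, listed at 0 in all 6 libraries, and 44.5% of its 100-base stretches occur in other genes. *Cmpk1*, the kinase for UMP and CMP, had 4794, 4014 and 3390.1 against 5086, 3988 and 3779 normalized counts, a log2 fold change of 0.08 (95% interval -0.28 to 0.44) that was -0.05 without WT library 3.

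Of the enzymes that break nucleotides down 0 of 3 passed the test by limma, edgeR or DESeq2. In limma 0 of 3 had an unadjusted p under 0.05, where 12.9% of all tested genes did in the lower direction and 14.4% in the higher. With quantile normalization *Samhd1* passed (log2 fold change 0.28, adjusted p = 0.0915 from limma, and from 0.0915 to 0.676 over its alternatives). *Samhd1*, which cleaves deoxynucleoside triphosphates and limits their pool outside S phase, had 17470.3, 18892 and 18486 normalized counts in WT and 20460.5, 19278 and 19362 in hnRNPL-deficient libraries. All hnRNPL-deficient values were slightly higher, but the log2 fold change was only 0.11 (95% interval -0.09 to 0.31, adjusted p = 0.467 from limma). *Ada*, adenosine deaminase, had 453, 338 and 345 against 342, 376 and 236 normalized counts, and *Pnp*, purine nucleoside phosphorylase, had 3434, 2056 and 2190.2 against 2476, 2005 and 2336. Both overlapped between groups. Of the exon bases of *Pnp*, 18.04% are shared with another annotated gene on the same strand.

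The order of levels among the enzymes was read per length, with the union of all annotated exons of a gene as its length. That union can hold exons of isoforms not expressed in these cells, so the order depends on the annotation. It was 7985 bases for *Atic* and 11012 for *Rrm1*. Per kilobase of annotated exon, *Paics* was highest in WT at 6381 ± 1526 normalized counts (SD, n = 3 libraries), followed by *Impdh2* (5241 ± 355) and *Hprt* (5219.6 ± 1018), and these 3 did not differ beyond their spread. The next were *Rrm2* (3057 ± 924) and *Dctpp1* (2997 ± 349), which were likewise within their spread. At the low end were *Tk1* (208), *Dguok* (195), *Ada* (189), *Rrm2b* (148), *Dhodh* (123) and *Tk2* (109), with the uncertain *Nme2* last (82.8). The salvage and mitochondrial kinases *Tk1*, *Dguok* and *Tk2* thus sat far below *Dck*, at 1228 ± 268 per kilobase.

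Other genes of nucleotide metabolism were taken from a list of 75, of which 55 were tested. They had a median log2 fold change of -0.10, 10 passed the test in the lower direction (7.97% of all tested genes did) and 4 in the higher (10.0% of all tested genes did). Of these, 8 were called lower, where the background is 4.08%, and 2 higher, where it is 7.28%. *Dctd*, which deaminates dCMP to dUMP and so feeds thymidylate synthesis, had 1960.1, 1466 and 1259 normalized counts in WT and 730.2, 693 and 714 in hnRNPL-deficient libraries. All hnRNPL-deficient values were far below WT and close to each other, at 45.6% of the WT mean (log2 fold change -1.11, 95% interval -1.48 to -0.73, adjusted p = 0.00512 from limma). *Uck2*, which phosphorylates uridine and cytidine, fell from 6404 ± 626 to 4199 ± 1003 normalized counts (log2 fold change -0.63, adjusted p = 0.0478 from limma), but was called in 11 of its 19 alternative fits, with adjusted p from 0.00444 to 0.143. It was not called with WT library 2 or 3 or hnRNPL-deficient library 1 or 3 left out.

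Of the kinases, *Nme7*, a diphosphate kinase family member found at centrosomes and cilia, had 885, 747 and 709.7 against 217, 269 and 345 normalized counts, at 35.5% of WT (log2 fold change -1.51, adjusted p = 0.00289 from limma). *Ak7*, an adenylate kinase of cilia, was low in both groups and lower in hnRNPL-deficient libraries (43.1 ± 4.23 against 10.7 ± 1.63 normalized counts, adjusted p = 0.00763 from limma). *Ak6*, a nuclear adenylate kinase, had 2160.3 ± 509 against 1143 ± 163 normalized counts (adjusted p = 0.0166 from limma). It is uncertain, since 56.5% of its exon bases are shared with *Taf9* on the same strand. *Nudt18*, a hydrolase of oxidized nucleotides, rose from 183, 271 and 248 to 510.3, 546 and 359 normalized counts (log2 fold change 1.01, 95% interval 0.50 to 1.51, adjusted p = 0.0241 from limma).

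Transporters of nucleosides and nucleotides changed in both directions. Both equilibrative nucleoside transporters of the plasma membrane that were called fell, without overlap between groups. *Slc29a1* went from 3222, 3465 and 3098 to 2321, 2231 and 1532 normalized counts (log2 fold change -0.71, adjusted p = 0.0269 from limma), and was under 1.5-fold without hnRNPL-deficient library 3 (-0.52). *Slc29a2* went from 554, 709.8 and 660.0 to 385, 409.9 and 319 normalized counts (log2 fold change -0.79, adjusted p = 0.0190 from limma). The mitochondrial pyrimidine nucleotide carriers moved apart. *Slc25a36* had 2742, 2711 and 2482 normalized counts in WT and 5628, 4379 and 5535 in hnRNPL-deficient libraries, 196% of WT (log2 fold change 0.96, 95% interval 0.69 to 1.24, adjusted p = 0.00256 from limma). *Slc25a33* had 629, 593 and 559.8 against 351, 360.4 and 333 normalized counts, 58.6% of WT (log2 fold change -0.77, 95% interval -1.07 to -0.46, adjusted p = 0.00940 from limma). Their ratio, computed after the values were seen, was 4.36, 4.57 and 4.43 in WT and 16.05, 12.1 and 16.6 in hnRNPL-deficient libraries, 3.32-fold higher. The pair was one of the 9 adjusted together, but its p-value is not given, since the pair was chosen from these same values.

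The remaining 4 genes that passed the test changed by less than 1.5-fold and are named here after their values were seen, with no alternative fit computed. The AMP deaminases *Ampd2* and *Ampd3* fell, with log2 fold changes of -0.56 and -0.54 (adjusted p of 0.0313 and 0.0771 from limma). *Slc28a2*, a concentrative purine nucleoside transporter, rose from 1139 ± 48.7 to 1538 ± 83.1 normalized counts (adjusted p = 0.0342 from limma). *Nt5m*, a mitochondrial deoxyribonucleotidase, rose from 426 ± 26.4 to 563 ± 19.9 normalized counts (adjusted p = 0.0876 from limma).

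**Figure D5:**
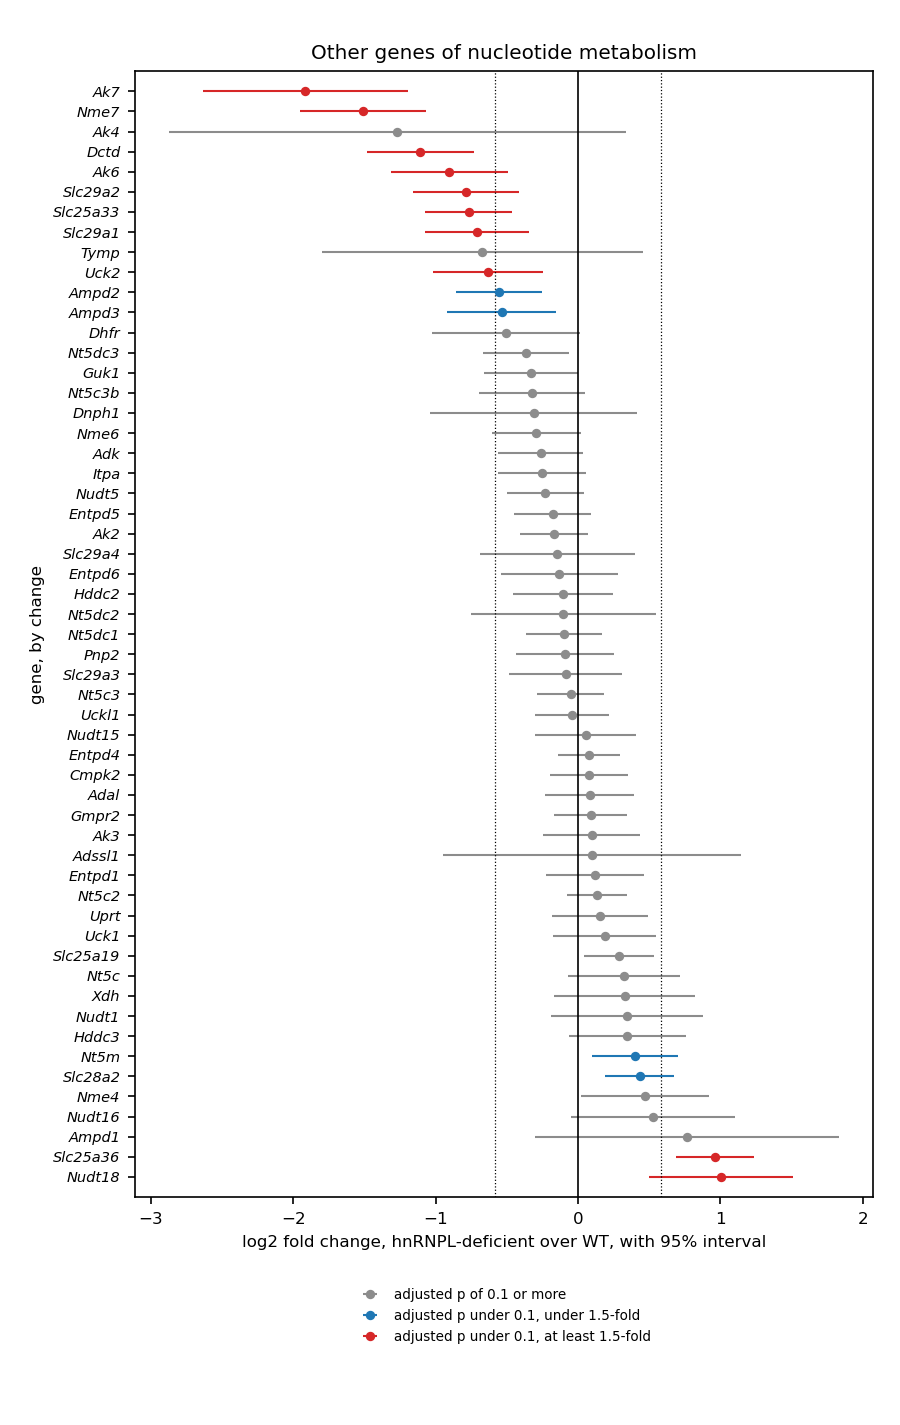
Points are log2 fold changes of hnRNPL-deficient over WT libraries and lines their 95% intervals from limma, for the 55 tested genes of the wider list, ordered by change. Red marks the 10 called genes, from *Ak7* (-1.91) to *Nudt18* (1.01), and blue the 4 others with an adjusted p under 0.1.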

How the data were processed

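RNA-seq of 3 WT and 3 hnRNPL-deficient libraries was grouped by the submitters' labels. The authors trimmed reads with fastp 0.23.1, aligned them to mm10 with STAR 2.7.9a, counted them strand-specifically per gene with featureCounts and divided the counts by size factors from DESeq2 1.38.2. The deposited unit is therefore a scaled count, treated here as a signal. Dividing each library by its smallest value gave whole numbers for 100% of values (within 0.01), so reads could be recovered. The deposited table also holds the authors' own comparison, and none of its log2 fold changes, errors, score-type statistics or raw and corrected p-values was used. In all, 0 columns of per-sample values were left out.

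limma 3.58.1 (R 4.3.3, mean-variance trend) was applied to log2(normalized count + 1) over genes with a mean of at least 10, after a trial on simulated data. The trial left 17440 of 17640 genes unchanged, of which limma called 12. Of the changed genes it called 8 of 66 at a log2 change of 0.6 and 32 of 67 at 1. At a log2 change of 2 it called 54 of 67. Changes of the size seen for most enzymes could thus be missed. Adding 1 understates changes of low genes. The labels name no animals, but the study describes these values as those of individual mice. Alternatives were edgeR 4.0.16 and DESeq2 1.42.0 on recovered reads, other pseudocounts, filters, scalings, variance settings and thresholds, an *Xist* covariate, the replicate number as a block, and each library left out.

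Any enzyme of the set could be named, and of the wider list every called gene. Members, lists, motifs and tests were chosen with earlier results of these data known, and several members belong to MYC and E2F programmes already seen to be lower, so their direction is no independent support. Coordinates, exon lengths and shared bases come from GENCODE vM21 on GRCm38, an earlier release than the authors used.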

Additional observations from a re-analysis of the deposited data

How the results depend on the processing

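Of 873 refits of single genes, 838 left the direction and the call as they were, 21 lost a call, 4 gained one and 10 changed sign. Most of the refitted genes were not called in the reported fit, so an unchanged call was likely for them beforehand. A gene under 1.5-fold that crossed an adjusted p of 0.1 was also counted as unchanged. The 838 are therefore no measure of how stable the test results were. Enzymes called lower (2 as reported) were 1 with equal totals, no mean-variance trend, or edgeR on 6 or on 5 libraries, and 1 with quantile normalization, where neither *Umps* nor *Dck* was called and *Nme2* was. They were 0 at an adjusted p under 0.05 with 2-fold, where enzymes called higher were also 0. With 1 library left out they ranged from 0 (without WT library 1 or hnRNPL-deficient library 3) to 4 (without WT library 3). Enzymes lower at an adjusted p under 0.1 (6 as reported) were 3 without the trend and 2 to 4 with 1 library left out, and those higher (2 as reported) 1 to 2. Those lower were 8 with equal totals or quantile normalization, 9 by DESeq2 and 4 by edgeR on 5 libraries. Over all genes, 610 were called higher and 216 lower at the stricter threshold, and 830 to 1111 higher and 478 to 696 lower with 1 library left out. Of the wider list, 1 was called higher and 3 lower at the stricter threshold.

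Sign changed for *Prps2* with quantile normalization (0.0449) and with edgeR on 5 libraries (0.0171) and for *Cad* with quantile normalization (0.0193). With 1 library left out, log2 fold changes ran from -0.188 to 0.0740 for *Prps2* (above 0 without WT library 1 or hnRNPL-deficient library 3), from -0.206 to 0.0189 for *Tyms*, from -0.267 to 0.0212 for *Hprt* and from -0.277 to 0.0929 for *Pnp* (each above 0 without WT library 1), and from -0.0523 to 0.204 for *Cmpk1* (below 0 without WT library 3 or hnRNPL-deficient library 1). Each of these genes had an adjusted p over 0.1 in the reported fit. The causes were not tested.

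Whether the replicate numbers pair the libraries cannot be told from these values, and the reported fit used no pairing. The deviations of same-numbered libraries correlated at 0.429, 0.320 and 0.0663, the last under 0.1. Each hnRNPL-deficient library correlated best with the WT library of its number. WT library 3, however, correlated best with hnRNPL-deficient library 2 (0.305). With the number as a replicate block, 23 enzymes were lower at an adjusted p under 0.1 (6 as reported) and 1755 genes were called higher (1284 as reported). The median log2 fold change of the enzymes stayed between -0.37 and -0.18 over all alternatives. Depth did not differ by group alone, but the shallowest library (40395186 reads) was also the lowest for most enzymes, and 3 libraries per group leave intervals that reach 1.5-fold for many genes that did not pass.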
